A study of Mus musculus with 4 samples.

Results

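The cells described here are CD8 T cells of the mouse lung with high Ccl5, taken as memory and cytotoxic CD8 T cells. They were selected on the deposited UMI counts of 10 genes, so the choice rests on measured values. A barcode entered when it held at least 1 UMI of Cd3d, Cd3e and Cd3g together, at least 1 UMI of Cd8a and Cd8b1 together and at least 2 UMIs of Ccl5, with no UMI of Cd4, Ncr1, Cd79a or Cdh5 (each UMI, a random molecular tag, counts 1 RNA molecule that was caught). Of 9363 barcodes, 238 (2.54%) passed. Whole lungs of 4 mice were sequenced, with 1 library per mouse. The 2 libraries labelled WT came from ERG fl/fl mice without Cre, and the 2 libraries labelled ERG CKO came from CDH5-CreER(T): ERG fl/fl mice. All 4 mice carried the floxed alleles and received tamoxifen, as 5 daily doses of 0.5 mg, and lungs were taken 90 days afterwards. Their age is not given in the labels. The Cre is driven by an endothelial promoter, and the gated cells were required to hold no UMI of its gene, Cdh5. Nothing marks the cells in which the Cre had acted.

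CD8 T cells recognise peptides held by MHC class I. A naive cell circulates between blood and lymph nodes with homing receptors such as Ccr7, and after meeting its antigen it can become an effector that kills targets with perforin and granzymes from cytotoxic granules, or a long-lived memory cell. Memory and effector CD8 T cells keep large amounts of mRNA of the chemokine Ccl5, which naive cells lack, and in the lung they are found in the capillary blood, passing through the tissue, or resident in it.

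The gated cells held 1791860 UMIs in all. WT libraries 1 and 2 had 57 and 97 gated cells with median depths of 8082 and 6008 UMIs per cell, and ERG CKO libraries 1 and 2 had 42 and 42 gated cells with median depths of 6110 and 7353 UMIs. The share of gated cells over 10% mitochondrial UMIs was 0, 3.09, 14.3 and 0% in the same order, so it stood apart in ERG CKO library 1. Replicate 1 of both groups expressed Xist (1059 and 1158 CPM, a gene's UMIs scaled to a common library total) and replicate 2 of both groups expressed the Y-linked Ddx3y (99.6 and 82.2 CPM), so the sex of the mice was balanced between groups and coincided with the replicate number. The targeted gene could not check the labels. In endothelial barcodes, Erg was counted at 90.02 and 83.2 CPM in the WT libraries and at 102 and 82.3 CPM in the ERG CKO libraries, and a count per gene also takes up reads from outside a deleted exon. No gated cell held an Erg UMI.

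Before any comparison, 2 of the 238 cells stood apart. WT library 1 held 1 gated cell with 41259 UMIs and 311 UMIs of Lyz2, a lysozyme of macrophages and neutrophils, and WT library 2 held 1 with 61462 UMIs and 359 of Lyz2. They carried 8.79% and 8.74% of the gated UMIs of their libraries. Both also held T cell RNA, with 38 and 71 UMIs of the Cd3 genes and 32 and 104 of the Cd8 genes. No ERG CKO cell of the gate reached 5 Lyz2 UMIs, and Scrublet called neither cell a doublet. Results that rest on these 2 Lyz2-high cells are given with and without them.

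Promoters of the cytotoxic granule genes that the results turn on are shown to place them in the genome and to show their letters at known motifs of T-box factors (the family of T-bet and Eomes) and Runx factors, which act in cytotoxic T cells. Each run is RefSeq sequence of GRCm38.p6, the build the submitters name as mm10, from 250 bases before to 50 after the transcription start, 5′ to 3′ on the strand of the gene. Capitals mark matches to the T-box letters GGTGTGA or the Runx letters TGTGGT on either strand. Nkg7, a granule membrane protein, lies at chr7:43436888-43437187 (plus strand), with a T-box match starting at -13 and a Runx match at -83 from the start site.
Nkg7: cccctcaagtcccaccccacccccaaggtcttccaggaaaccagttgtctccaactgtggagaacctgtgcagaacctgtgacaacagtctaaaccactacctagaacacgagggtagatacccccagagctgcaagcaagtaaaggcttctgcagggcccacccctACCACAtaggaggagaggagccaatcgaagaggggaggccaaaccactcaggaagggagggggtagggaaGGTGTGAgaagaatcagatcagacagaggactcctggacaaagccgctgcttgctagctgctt
Gzmk, or granzyme K, lies at chr13:113180916-113181215 (minus strand), with a T-box match at -75 and no Runx match.
Gzmk: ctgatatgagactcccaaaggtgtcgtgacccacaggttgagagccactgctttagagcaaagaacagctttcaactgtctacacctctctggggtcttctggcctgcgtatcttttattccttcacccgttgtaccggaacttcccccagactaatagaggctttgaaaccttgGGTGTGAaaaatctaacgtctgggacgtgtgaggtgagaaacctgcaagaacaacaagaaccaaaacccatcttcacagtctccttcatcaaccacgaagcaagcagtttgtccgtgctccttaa
Gzma, or granzyme A, lies at chr13:113100932-113101231 (minus strand), with a Runx match at -50.
Gzma: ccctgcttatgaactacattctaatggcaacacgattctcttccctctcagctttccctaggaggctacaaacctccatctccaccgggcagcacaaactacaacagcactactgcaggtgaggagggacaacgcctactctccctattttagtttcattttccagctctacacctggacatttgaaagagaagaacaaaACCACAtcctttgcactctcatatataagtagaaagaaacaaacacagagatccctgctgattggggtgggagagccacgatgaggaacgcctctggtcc
Gzmb, or granzyme B, lies at chr14:56262285-56262584 (minus strand), with Runx matches at -93 and -34.
Gzmb: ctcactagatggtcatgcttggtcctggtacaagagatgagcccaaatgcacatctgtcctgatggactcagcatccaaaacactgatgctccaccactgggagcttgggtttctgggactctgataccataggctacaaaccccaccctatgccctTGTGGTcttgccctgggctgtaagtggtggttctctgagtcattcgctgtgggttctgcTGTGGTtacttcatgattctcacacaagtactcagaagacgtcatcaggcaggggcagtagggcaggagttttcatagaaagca
Of the 15 genes of the cytotoxic granule list, 14 had a promoter in the table, of which 3 (21.4%) held the T-box letters and 9 (64.3%) the Runx letters, beside 3.98% and 16.8% of 32851 promoters of the same length. A match of letters is a description and not a binding site. The motifs do not overlap one another in these 4 promoters.

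The label was checked against markers the gate did not use, Nkg7 and Gzmk. Nkg7 was detected in 99.2% of gated cells and in 72.0% of CD8 T cells without Ccl5. Cd8b1 (94.1%) and Cd8a (85.3%) were set by the gate and check nothing. Gzmk was detected in 75 gated cells (31.5%), so the gate holds cells with and without it. In cells that should lack Gzmk, it had 0 UMIs in 818 B cells, which allows a share of cells with a UMI of up to 0.367%, and 5 of 318 NK cells (1.57%) had a UMI, at median depths of 4549 and 4511 UMIs beside 6671 in the gated cells. The 12 NK cell genes summed to 3025 and 2489 CPM in WT and to 1613 and 1921 CPM in ERG CKO, above the 364 to 640 CPM of Ccl5-free CD8 T cells and below the 23290 to 24160 CPM of NK cells, with 4 of the 12 higher than in Ccl5-free cells in all 4 libraries and none lower. Most of the sum was Gzma and Txk, a kinase detected in 78.2% of gated cells. Of the others, Ncr1 was at 0 by the gate, Klra8 had no UMI in any gated cell (60.1% of NK cells) and Klrb1c was detected in 6.30% (89.6% of NK cells).

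Among the 672 CD8 T cells of the gate at any Ccl5 level, 396 had no Ccl5 UMI, 38 had 1, and 11 had exactly 2, while 205 had more than 10. Median Ccl5 per gated cell was 65 and 101 UMIs in WT and 77.5 and 128 UMIs in ERG CKO libraries. Just outside the threshold, the 38 cells with 1 UMI had Nkg7 at 412 CPM, Ccr7 at 1167 CPM and Ly6c2 at 292.5 CPM, and just inside it the 11 cells with 2 UMIs had 616, 616 and 743 CPM. Neither set held a Gzmk UMI. In all gated cells Nkg7 was at 1591 CPM and Ccr7 at 336 CPM, so the cells at the threshold carried less Nkg7 and more Ccr7 than the gate as a whole.

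The gated cells were then set beside the 396 CD8 T cells without Ccl5, which pass the rest of the gate (median depth 7114 UMIs). The gate defines this contrast, so it is described and not tested. Of 14028 genes with a UMI, 15.8% were higher in the gated cells and 5.09% lower in all 4 libraries, with a median log2 ratio of 0.07 (10 CPM added to each mean). All levels are UMI counts from the 3′ end on the CPM scale, so they are compared between cells and not between genes.

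Genes of the killing machinery led. Of 15 cytotoxic granule genes, 13 were higher in all 4 libraries and none was lower. Gzma had a mean of 1521 CPM in gated cells and 3.27 CPM in Ccl5-free cells, a log2 ratio of 6.85, the largest of any gene outside the gate with the same sign in all 4 libraries. Gzmb was at 359 against 0.546 CPM (5.13) and Gzmk at 149 CPM against 0 UMIs in 396 cells (3.99 on the scale with 10 CPM added), which allows a share of Ccl5-free cells with a UMI, not of cells expressing it, of up to 0.758%. Nkg7 was present on both sides, at 1608 against 317 CPM (2.31), as was Ctsw, a cathepsin of cytotoxic cells, at 249 against 124 CPM. Serpinb9, an inhibitor that shields the cell from granzyme B, was at 166 against 6.89 CPM (3.38). Perforin (Prf1), which opens the target membrane, was low at 28.2 against 9.16 CPM, and in NK cells it was at 381 CPM. NK cells held more Gzma (13220 CPM) and Gzmb (1612 CPM) than gated cells and almost no Gzmk (3.73 CPM).

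Among secreted factors, 7 of 12 chemokine and cytokine genes were higher in all 4 libraries and 2 lower. Ccl5 is among the 7, and its difference was set by the gate. Ccl4 was at 287 against 5.31 CPM (4.28), Ifng, or interferon gamma, at 104 against 0.915 CPM (3.39) and Xcl1, a chemokine for cross-presenting dendritic cells, at 38.6 against 0.273 CPM (2.24). Ltb, or lymphotoxin beta, was lower at 301 against 372 CPM. Of 19 receptors for chemokines and cytokines, 13 were higher and 5 lower. Those for inflamed tissue were higher, with Cxcr3 at 130 against 5.25 CPM and Ccr2 at 50.1 against 4.41 CPM. So were Il2rb, the signalling chain for IL-2 and IL-15 (146 against 25.8 CPM), and Il18rap (57.6 against 3.72 CPM). Ccr9, the gut homing receptor, was lower at 2.13 against 34.7 CPM.

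Receptors shared with NK cells followed. Of the 19 measured NK-type receptor and adaptor genes, 11 were higher in all 4 libraries and none lower, led by Klrc2 (214 against 0.680 CPM), Klrk1, which encodes the activating receptor NKG2D (235 against 4.08 CPM), Klrc1 (128 against 0.680 CPM) and Klre1 (108 against 0.901 CPM). Klrd1, the partner chain of the Klrc receptors, was already at 266 CPM in Ccl5-free cells and at 412 CPM in gated cells. Klrc and Klra genes are close relatives, so reads may be split between them.

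Of 22 genes of the memory and effector transition, 21 were higher in all 4 libraries. S100a6 (1136 against 53.3 CPM, 4.18), Lgals1 (1192 against 60.5 CPM, 4.09), S100a4 (324 against 25.4 CPM) and Ly6c2 (698 against 105 CPM) were among them, as were the T-box factors Eomes (106 against 4.79 CPM) and Tbx21, or T-bet (44.0 against 0.953 CPM), Zeb2 (92.5 against 4.54 CPM) and Id2 (268 against 82.4 CPM). The exception was the integrin Itgb7, at 202 against 203 CPM. Of 14 naive and central memory genes, 12 were lower and none higher. Igfbp4 had the lowest ratio, at 10.5 against 217 CPM (-3.46), Ccr7 was at 350 against 974 CPM, Lef1 at 189 against 559 CPM and Satb1 at 337 against 693 CPM. Il7r (572 against 716 CPM) was nearer to the level of Ccl5-free cells.

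Residence genes were mixed, with 7 of 12 higher and 2 lower. Itgae, the CD103 integrin of epithelial-resident cells, was lower at 6.67 against 36.9 CPM and Zfp683, or Hobit, was near 0 (1.24 CPM), whereas Cxcr6 was at 32.1 against 16.4 CPM and Rgs1 at 316 against 74.3 CPM. Of 10 inhibitory receptor genes 6 were higher, including Pdcd1, or PD-1, at 37.3 against 1.37 CPM and Cd160 at 34.9 against 1.67 CPM. Of 15 genes of MHC class I presentation 10 were higher and none lower, by small ratios (H2-Q7, 1439 against 956 CPM). Proliferation genes were higher for 9 of the 11 measured, and Mki67 was detected in 5.88% of gated cells and in no Ccl5-free cell. Of 19 T cell receptor and co-receptor genes 10 were higher and 1 lower, of 26 measured interferon-stimulated genes 6 and 1, and of 24 immediate early and heat shock genes 3 and 6, with Jun, a subunit of AP-1, at 53.6 against 215 CPM.

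**Figure D1:**
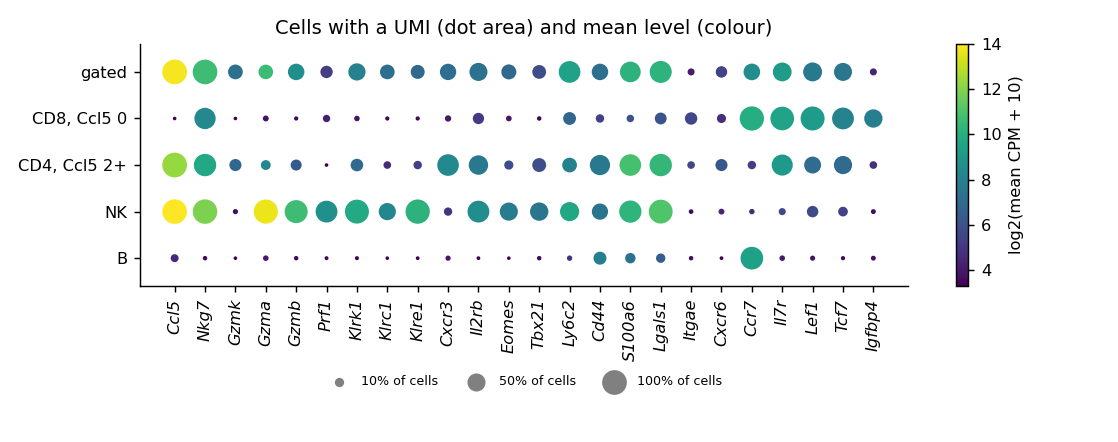
Each dot is 1 gene (x axis) in 1 kind of cell (y axis). Dot area is the share of cells with a UMI and colour the log2 of mean CPM over the 4 libraries with 10 added. Pooled over the gated cells, granule genes of NK cells are seen beside part of the Il7r, Lef1 and Tcf7 signal of Ccl5-free CD8 T cells. The dots do not show whether the same cells hold both. Gzmk is in 31.5% of gated cells against 1.57% of NK cells.

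CD4 T cells past the same Ccl5 threshold numbered 51. As a description, they had more Cxcr3 (74.5% of cells against 39.9% of gated cells) and less Gzma (11.8% against 30.7%) and Gzmb (15.7% against 40.8%), with Gzmk in 19.6%. No Prf1 UMI was counted in them. Of the T cells with neither co-receptor and at least 2 Ccl5 UMIs (121 cells), 24.8% held at least 2 UMIs of gamma delta receptor constant genes, against 5.88% of gated cells.

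Genes of lung cells other than T and NK cells were also counted. Summed over each library, 14 endothelial genes came to 70.3 to 99.0 CPM, 8 neutrophil genes to 4.26 to 25.6 CPM, 12 fibroblast and mural genes to 25.3 to 99.0 CPM and 12 B cell genes to 121 to 339 CPM, with Cdh5 and Cd79a at 0 by the gate and Ms4a1 at 0 as measured. The 10 erythroid and platelet genes came to 12.8 and 28.5 CPM in WT and to 148.5 and 60.04 CPM in ERG CKO, without overlap, with Hba-a2 and Alas2 at 0. Epithelial genes came to 337 to 447 CPM, most of it Hopx (294 CPM), which T cells also express. The 14 monocyte and macrophage genes came to 1593 and 1225 CPM in WT and to 403 and 370 CPM in ERG CKO, with C1qa at 0, and the 2 Lyz2-high cells held 94.4% of the Lyz2 UMIs of WT.

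Within the gate, granzymes divided the cells. Of 238 cells, 103 (43.3%) had none of Gzma, Gzmb and Gzmk, 39 (16.4%) had Gzma and Gzmb, 32 (13.4%) had Gzmk alone, 28 (11.8%) had all 3, 17 had Gzmb alone and 13 had Gzmb and Gzmk. Gzma came with Gzmb: 67 of 73 cells with Gzma (91.8%) also had Gzmb, whereas 41.1% had Gzmk. These shares are of cells at their full depth, so a gene not detected may still have been expressed.

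Effector receptors marked one end of the gate. Klrg1, Cx3cr1 or S1pr5, receptors of circulating effector cells, were detected in 79 cells. These cells had Gzma in 69.6% (11.3% of the other 159 cells), Gzmb in 87.3% (17.6%), Zeb2 in 64.6% (13.8%) and Ifng in 48.1% (17.0%). Il7r, the IL-7 receptor that sustains memory cells, was in 17.7% of them (73.0%) and Tcf7, which encodes the memory factor TCF-1, in 21.5% (63.5%). The level of Ccl5 was also higher, at 28930 against 9581 CPM.

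Several naive and central memory genes were detected less often in the cells with an effector receptor. Ccr7 was in 8.86% of them (57.9% of the other cells), the chromatin organiser Satb1 in 19.0% (62.9%) and Dapl1 in 3.797% (30.2%), and by CPM Il7r was at 95.9 against 685. Each of these directions held in all 4 libraries. The cells with effector receptors were shallower (median 4455 against 8153 UMIs), so Gzma and Gzmb were detected more often in the shallower cells. These splits use the same cells as the genes described, so they carry no test.

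Gzmk split the cells in part along the same line. The 75 cells with Gzmk had more of several effector genes, with Gzmb in 54.7% (34.4% of the 163 without), Gzma in 30 of the 75 (26.4%), Klrg1 in 33.3% (18.4%) and Fasl in 58.7% (31.9%). These cells had Eomes in 57.3% (21.5%) and Ccr2 in 38.7% (12.3%), and Klrc1 was in 46.7% (23.9%). Ly6c2, a surface protein of memory cells, was in 52.0% (85.9%) and Il7r in 32.0% (65.0%). Eomes was at 220 against 47.1 CPM, and it was higher by CPM with Gzmk in all 4 libraries, as were Cxcr3, Ccr2, Klrc1 and S100a6. Tbx21 differed little, with 24.0% against 28.2% of cells. Cells with Gzmk had a lower median depth (5160 against 7697 UMIs).

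**Figure D2:**
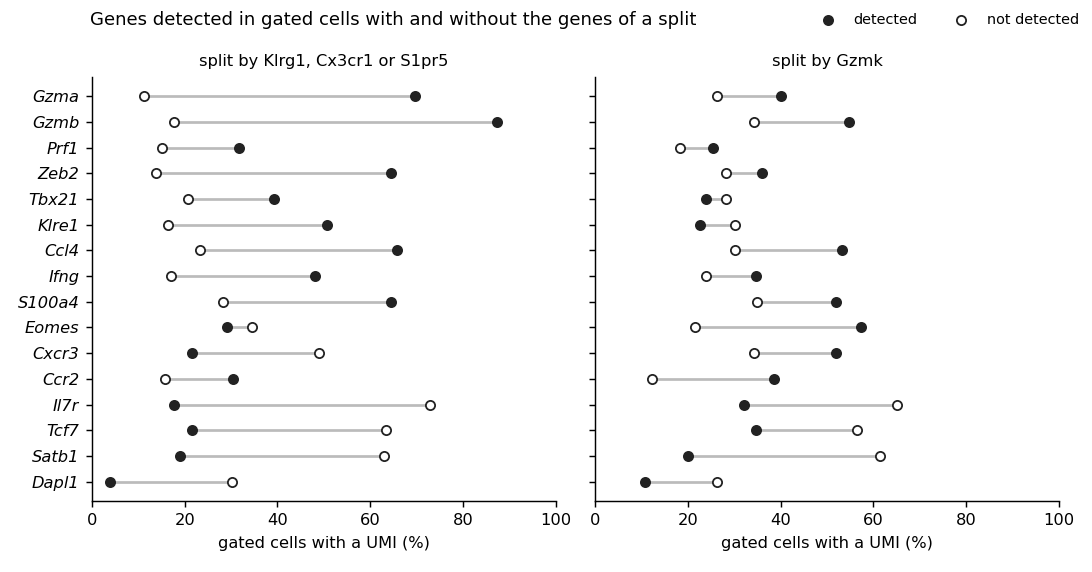
Share of gated cells with a UMI of each gene (x axis, %), in cells where the genes named above a panel were detected (filled) and not detected (open), over all 4 libraries and without thinning. Gzma and Gzmb lie far to the right with Klrg1, Cx3cr1 or S1pr5, while Eomes and Ccr2 lie further apart in the Gzmk panel.

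Gamma delta receptor constant genes reached 2 UMIs in 14 gated cells (5.88%) and residence genes (Itgae, Itga1, Cxcr6) reached 2 UMIs in 18 (7.56%). In Ccl5-free CD8 T cells these shares were 2.27% and 7.58%. Residence genes reached it in 15.7% of CD4 T cells past the Ccl5 threshold and in 21.5% of those with neither co-receptor. Mki67 or Top2a was detected in 34 gated cells (14.3%), of which 20 (58.8%) had Gzmk. Either gene was in 8.59% of Ccl5-free CD8 T cells and 21.6% of the CD4 T cells. Inhibitory receptors Pdcd1, Lag3, Tigit or Havcr2 were in 40 gated cells (16.8%), of which 24 (60.0%) had Gzmk and 15 (37.5%) a proliferation gene. They were in 1.01% of Ccl5-free CD8 T cells and in 27.5% of CD4 T cells past the Ccl5 threshold. Variable genes of the T cell receptor were rarely caught. A Trbv gene was detected in 34 gated cells (14.3%), and the most frequent, Trbv2, in 6, so clones could not be followed.

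The share of gated cells was compared between genotypes, with the mouse as the replicate. Gated cells made up 2.52% and 4.51% of barcodes in WT libraries 1 and 2 and 1.36% and 2.27% in ERG CKO libraries 1 and 2 (Wilson 95% intervals 1.95 to 3.25, 3.71 to 5.47, 1.01 to 1.83 and 1.68 to 3.05%). Both ERG CKO values lay below both WT values, which by itself fixes the order within each sex. The mean was 3.52% ± 1.41 in WT and 1.81% ± 0.645 in ERG CKO (SD, n = 2 each), a difference of -1.70 percentage points (exact permutation test, two-sided, p = 0.333, which is the smallest value that 2 against 2 libraries allow). Without WT library 2 the difference was -0.706 and without WT library 1 it was -2.70. The libraries, and not the cells, are the units of these p-values. For 2 against 2 values without overlap, this permutation p is 0.333 whatever their spread. On the log2 scale, edgeR on the cell counts gave -0.98 (SE 0.51), which did not pass 0.05.

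The separation depended on the denominator. As a share of T cells the values stood at 11.4 and 23.8% in the WT libraries and at 7.71 and 13.5% in the ERG CKO libraries, and as a share of CD8 T cells of the gate 28.6 and 51.9% against 22.7 and 41.6%, both with overlap (exact permutation p = 0.667 for each). With every barcode thinned to 2000 UMIs they were 1.92 and 4.22% against 1.39 and 2.07%, again with overlap. CD8 T cells at any Ccl5 level were tighter, at 8.79 and 8.70% in the WT libraries and at 5.97 and 5.45% in the ERG CKO libraries (exact permutation p = 0.333), while Ccl5-free CD8 T cells overlapped (5.74 and 3.95% against 4.07 and 2.97%), as did NK cells (4.33 and 2.33% against 2.10 and 5.67%) and B cells (7.51 and 9.44% against 8.30 and 10.2%). All T cells were also lower without overlap (22.1 and 18.9% against 17.6 and 16.85%). So were CD4 T cells past the Ccl5 threshold (0.707 and 0.791% against 0.388 and 0.324%). T cells with neither co-receptor past it overlapped (1.46 and 0.977% against 1.195 and 1.62%). A lower share of barcodes can also come from more barcodes of other cells.

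**Figure D3:**
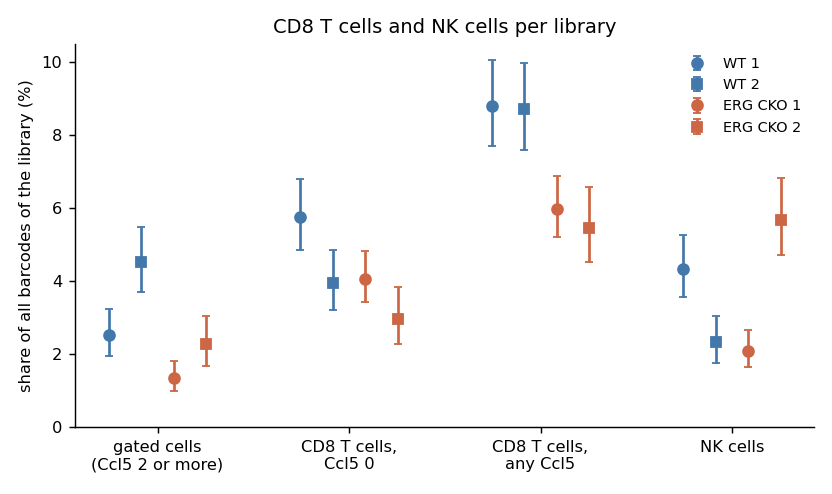
Share of all barcodes of a library (y axis, %) for gated cells, Ccl5-free CD8 T cells, CD8 T cells at any Ccl5 level and NK cells. Points are the 4 libraries and bars 95% Wilson intervals, which cover counting error only. Gated cells sit at 2.52 and 4.51% in the WT libraries and at 1.36 and 2.27% in the ERG CKO libraries.

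The makeup of the gate was compared at equal depth, as the share of gated cells in each sub-gate after thinning to 2000 UMIs (230 cells). The values given are mean shares over all possible draws of 2000 UMIs, a reading added after the data were seen. The planned reading, a single draw, gave other values, and these are given for some of the shares. It is also named where it changed whether the groups overlapped. Cells with Klrg1, Cx3cr1 or S1pr5 stood at 25.2 and 25.2% in the WT libraries and at 15.4 and 16.0% in the ERG CKO libraries, a mean of 25.2% ± 0.0562 against 15.7% ± 0.432 (SD, n = 2 each). The planned single draw had a wider spread, at 20.4 and 24.0% in WT (SD 2.54) against 13.2 and 14.3% in ERG CKO (SD 0.798). Cells with at least 2 Ly6c2 UMIs were 42.6 and 40.2% against 26.02 and 32.5% (35.2 and 38.5% against 28.95 and 26.2% in the single draw). Cells with Gzma were 32.1 and 27.1% against 20.4 and 24.8%, and those with Gzmb 31.2 and 38.3% against 23.7 and 29.2%. These 4 shares were lower in both ERG CKO libraries than in both WT libraries. Without thinning the effector receptor share still did not overlap (35.1 and 39.2% against 23.8 and 26.2%), whereas the Ly6c2, Gzma and Gzmb shares did.

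The share with an inhibitory receptor (Pdcd1, Lag3, Tigit or Havcr2) went the other way, at 5.32 and 6.26% in the WT libraries and at 17.3 and 10.02% in the ERG CKO libraries, a mean of 5.79% ± 0.664 against 13.7% ± 5.18 (SD, n = 2 each). Without thinning it was 8.77 and 14.4% against 28.6 and 21.4%. After thinning, the same genes were detected in 3.68% of NK cells and 0.528% of B cells. Gzmk overlapped, at 15.2 and 19.4% in the WT libraries and at 26.3 and 19.3% in the ERG CKO libraries (11.1 and 17.7% against 26.3 and 28.6%, without overlap, in the single draw), as did the shares with residence genes, gamma delta genes and proliferation genes, which did not overlap in the single draw. No sub-gate could pass the exact permutation test, whose smallest p is 0.333 (0.370 in the single draw after adjustment over all 10 sub-gates computed). At 3000 UMIs, a single draw had the circulating effector share at 20% and 28.9% in the WT libraries and at 21.6 and 21.4% in the ERG CKO libraries, so that separation was lost.

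**Figure D4:**
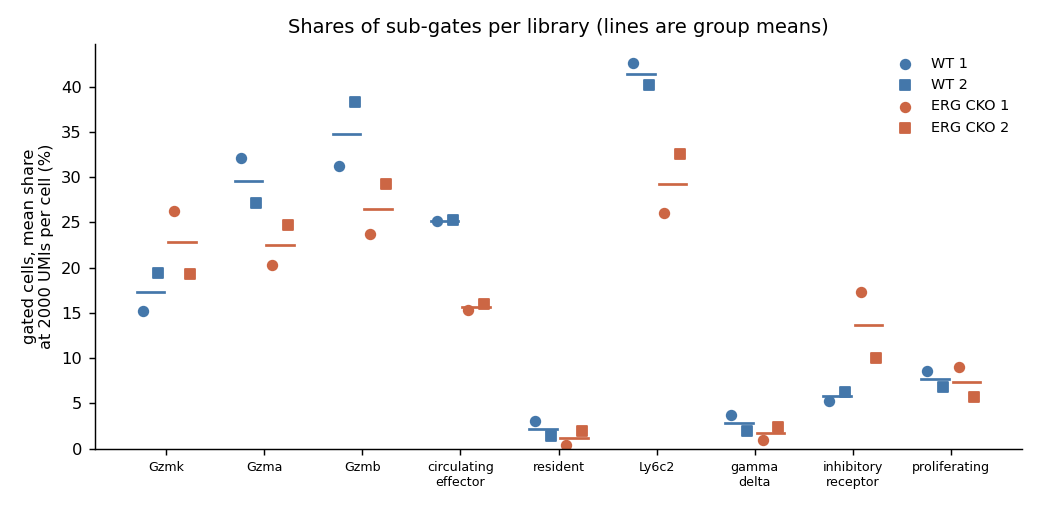
Share of gated cells in each sub-gate (y axis, %), as the mean over all draws of 2000 UMIs per cell. Points are libraries and lines group means. The circulating effector and Ly6c2 shares are lower, and the inhibitory receptor share higher, in both ERG CKO libraries (inhibitory receptor 17.3 and 10.02%) than in both WT libraries (5.32 and 6.26%).

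Gene levels were compared between genotypes with the edgeR quasi-likelihood test on counts summed per library, with the 10 genes of the gate left out. Of 4429 genes tested, 3 (0.0677%) passed an adjusted p of 0.05, all lower in ERG CKO. They were Lyz2 (697 and 545 CPM in WT, 46.2 and 50.6 CPM in ERG CKO, log2 fold change -3.69, SE 0.27, adjusted p = 1.39e-05), Chil3, a chitinase-like protein of alveolar macrophages (492 and 293 against 19.8 and 12.6 CPM, -4.59, SE 0.40, adjusted p = 7e-05), and Lpl, or lipoprotein lipase (40.5 and 62.6 against 3.299 and 3.16 CPM, -3.93, SE 0.63, adjusted p = 0.0425). The 2 Lyz2-high cells held 94.4%, 94.97% and 100% of the WT UMIs of these genes. Without them edgeR called 0 of 4112 genes, with 183 at an unadjusted p under 0.05, and DESeq2 called 2 genes with all cells. With 1 library left out, the count was 19 without WT library 1, 47 without WT library 2, 36 without ERG CKO library 1 and 32 without ERG CKO library 2. The next smallest p-values among lower genes were those of Ccl6 (-4.92, adjusted p = 0.0830), Ear2 (-4.57, adjusted p = 0.0830), Cdkn1a (-1.96), Fosb (-1.11) and Sirpa (-5.04, the last 3 with adjusted p = 0.202), none of them called.

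No gene of the T cell lists passed the adjusted test, so the values that follow are measured differences, and an unadjusted p under 0.05 serves only to count genes. Over all genes tested, 2.37% had an unadjusted p under 0.05 and were higher in ERG CKO and 2.75% were lower, with a median log2 fold change of -0.002. By CPM alone, both ERG CKO libraries lay above both WT libraries for 17.0% of these genes and below them for 15.4%, so a gene without overlap between groups is common here. Of 14 cytotoxic granule genes tested (of 15), 2 were past that threshold in each direction, with a list median of -0.07. Gzma was at 2241 and 1869 CPM in the WT libraries and at 713 and 1261 CPM in the ERG CKO libraries, without overlap (log2 fold change -1.08, SE 0.25, edgeR adjusted p = 0.317). Its UMIs came from few cells, since the 3 highest cells held 48.7 and 37.5% of them in WT and 65.7 and 84.0% in ERG CKO. Both Gzma and Gzmb were past the unadjusted threshold downwards. Gzmb was at 396 and 477 against 241 and 322 CPM (-0.65, edgeR adjusted p = 0.843). Gzmk went the other way, at 78.8 and 121 against 277 and 120 CPM (0.94, edgeR adjusted p = 0.865), with WT library 2 just above ERG CKO library 2. Gzmk and Serpinb6b were past it upwards. Serpinb6b, an intracellular protease inhibitor, was at 166 and 182 against 267 and 212 CPM (0.44, edgeR adjusted p = 0.956), and Nkg7 lay close at 1182 and 1703 against 1709 and 1836 CPM.

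Of 21 tested genes of the memory and effector transition, 3 were past the unadjusted threshold in each direction, with a median of -0.001 (3 upwards and 2 downwards with a median of 0.16 without the 2 Lyz2-high cells). Ly6c2 was at 799 and 837 against 551 and 604 CPM (-0.52, edgeR adjusted p = 0.865). Zeb2 (-0.28), Tbx21 (-0.53) and Klrg1 (-0.47) missed the threshold. Cx3cr1, the fractalkine receptor, was at 59.7 and 49.8 against 33.0 and 22.1 CPM (-0.99, edgeR adjusted p = 0.874). Upwards, S100a6 was at 467 and 1239 against 1541 and 1296 CPM (0.72, edgeR adjusted p = 0.956), and Itga4 and S100a11 were the other members past the threshold. Of 5 tested chemokine and cytokine genes, 2 were past it downwards, Ccl4 (-0.60) and Xcl1 (-1.24), with a list median of -0.32.

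Of 9 tested NK-type receptor and adaptor genes (of 21), none was past the unadjusted threshold upwards and 2 were downwards, with a median of 0.05. Without the 2 Lyz2-high cells 1 of 8 was downwards, with a median of -0.02. Klre1, 1 of the 2 genes downwards with all cells, was at 147 and 128 against 79.2 and 75.8 CPM (-0.84, edgeR adjusted p = 0.619). Of the NK cell genes, 5 were tested (of 12) and 2 were past it downwards with a median of -1.08, and without the 2 Lyz2-high cells 1 of 4 with a median of 0.01. Gzma belongs to that list, and the part of NK cells in these differences was not tested.

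Of 17 tested chemokine and cytokine receptors 3 were past the unadjusted threshold upwards and 2 downwards, and 13 had a log2 fold change above 0, or 9 without the 2 Lyz2-high cells. Il7r was at 503 and 384 against 822 and 581 CPM (0.64, edgeR adjusted p = 0.865), Il2rb at 117 and 121 against 188 and 158 CPM (0.52, edgeR adjusted p = 0.874) and Cxcr3 at 59.7 and 130 against 218 and 114 CPM (0.74), the last with overlap. Of 14 tested T cell receptor and co-receptor genes 3 were past it upwards and none downwards. Among them, Cd28 was at 328 and 350 against 525 and 436 CPM (0.48, edgeR adjusted p = 0.874) and Cd2, an adhesion receptor, at 264 and 353 against 495 and 408 CPM (0.52, edgeR adjusted p = 0.874). The 2 receptors past it downwards were Cx3cr1 and S1pr5, which guides exit from tissue, at 53.3 and 31.3 against 19.8 and 15.8 CPM (-1.21, edgeR adjusted p = 0.874). The naive and central memory list had a median of 0.06 over 13 tested genes, with Ccr7 at 437 and 250 against 307 and 405 CPM.

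Ctla4, the inhibitory receptor that competes with Cd28, was the inhibitory receptor gene of the 4 tested (of 10) past the unadjusted threshold. It was at 40.5 and 58.3 CPM in the WT libraries and at 211 and 94.8 CPM in the ERG CKO libraries, without overlap (log2 fold change 1.57, SE 0.34, edgeR adjusted p = 0.205, and 1.42 without the 2 Lyz2-high cells). Its size rested on ERG CKO library 1, at 0.91 without that library and 2.04 without ERG CKO library 2. Ctla4 RNA is also a mark of regulatory T cells. Foxp3, which defines them, was detected in 0.840% of gated cells, and Ikzf2, another of their marks, in 10.5% (9.34% of Ccl5-free cells). The 8 genes of CD4 and regulatory T cells summed to 113 and 84.0 CPM in WT and to 162 and 34.8 CPM in ERG CKO. The part of regulatory T cells in the Ctla4 difference was not tested. Pdcd1, just short of the unadjusted threshold, was at 23.4 and 28.5 against 62.7 and 34.8 CPM (0.86, edgeR adjusted p = 0.956). Lag3, Havcr2 and Tigit were too low to test. Also higher and not called were Ctla2a (467 and 519 against 1095 and 812 CPM, 0.93), Ctla2b (19.2 and 35.6 against 116 and 60.0 CPM, 1.59), Gpr183, an oxysterol receptor for positioning in lymphoid tissue (192 and 236 against 449 and 338 CPM, 0.85), and the antibody light chain Igkc (4.26 and 12.8 against 72.6 and 37.9 CPM, 2.52). Igkc is RNA of B lineage cells, and its part in the other differences was not tested.

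Of 21 tested immediate early and heat shock genes, which respond to dissociation as well as to activation, 19 had a log2 fold change below 0 and 3 were past the unadjusted threshold downwards (median -0.18). Fosb was at 224 and 179 against 95.7 and 91.6 CPM (-1.11, and -0.55 without the 2 Lyz2-high cells) and Nr4a2 at 326 and 252 against 201 and 145 CPM (-0.75, edgeR adjusted p = 0.722). Of 10 tested proliferation genes 3 were past it downwards with a median of -0.85, but without the 2 Lyz2-high cells there was 1 of 9, with a median of 0.04, and Mki67 moved from -0.90 to 0.51. Of 15 MHC class I genes none was past it in either direction, and of 15 tested interferon-stimulated genes 1 was, upwards. The mitochondrially encoded genes had 0 of 13 past it, with a median of 0.10 beside the higher mitochondrial share of ERG CKO library 1, whose part in the other differences was not tested.

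**Figure D5:**
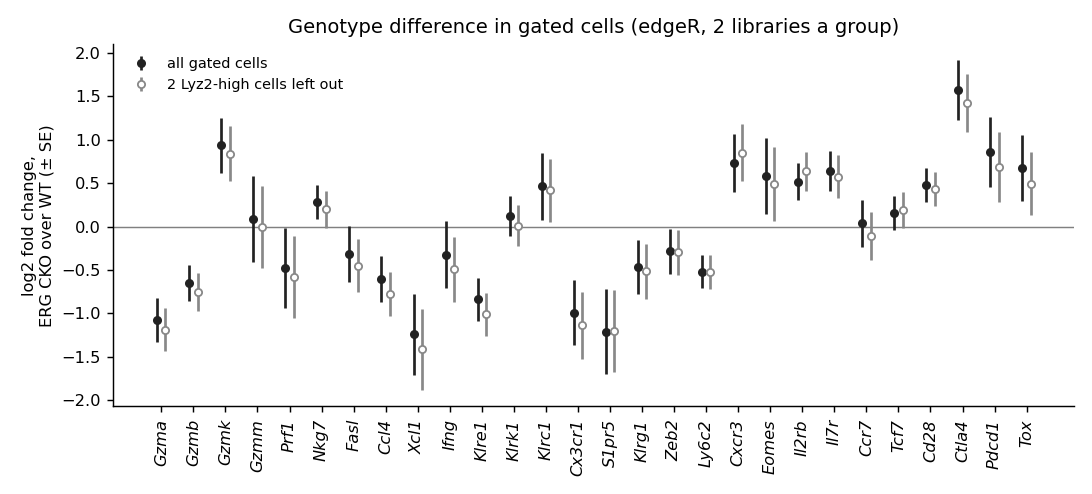
Log2 fold change of ERG CKO over WT (y axis) with its standard error for genes of the lists (x axis), from edgeR on sums per library, with all gated cells (filled) and without the 2 Lyz2-high cells (open). Gzma (-1.08), Klre1 (-0.84), Cx3cr1 (-0.99) and S1pr5 (-1.21) lie below 0 and Ctla4 (1.57), Il7r (0.64) and Cd28 (0.48) above it, and no gene shown passed the adjusted test.

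Whether genotype acted differently in gated cells than in Ccl5-free CD8 T cells of the same mice was tested as an interaction, with library as a term. Of 5854 genes, 15 (0.256%) passed an adjusted p of 0.05, all with a lower ERG CKO over WT ratio in gated cells. They were Chil3, Lyz2, Ccl6, Cybb, Lpl, Mpeg1, Sirpa, Ear2, Plet1, Plaur, Tnfaip2, Fcer1g, Mrc1, Abcg1 and Cd74, and the 2 Lyz2-high cells held between 55.2% (Fcer1g) and 100% (Lpl and Plet1) of their WT UMIs. Without cells of at least 5 Lyz2 UMIs, which also took out 4 Ccl5-free cells of ERG CKO library 1, edgeR called 0 of 5572 genes, with 257 at an unadjusted p under 0.05. With 1 library left out the count was 4 without WT library 1, 6 without WT library 2, 7 without ERG CKO library 1 and 54 without ERG CKO library 2. Fcer1g, an adaptor of NK-type receptors, was the member of the T cell lists among them. Ctla4 had an interaction of 1.63 (edgeR adjusted p = 0.137) and a genotype difference of -0.02 in Ccl5-free cells. Ly6c2, at -0.52 in gated cells, fell by 1.57 on the log2 scale in Ccl5-free cells (edgeR adjusted p = 0.00245), and the interaction of 1.03 was not called (adjusted p = 0.327).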

How the data were processed

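Lung cells of 2 WT and 2 ERG CKO mice were profiled by droplet single-cell RNA-seq. The authors deposited UMI counts per gene and barcode, made with Cell Ranger 3.1.0 on mm10 according to the submitters' processing notes, and these counts were used as deposited (20076 rows, of which 26 with 13 repeated symbols were summed). All 9363 columns carried a sample. No filter on cells was added. The members, gene lists and sub-gates were chosen with earlier results of these data known, and so support no finding by themselves.

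Libraries held 11263911 to 18646776 UMIs. Counts were summed over gated cells per library and tested with edgeR 4.0.16 (quasi-likelihood, TMM, filterByExpr, Benjamini-Hochberg at 0.05) in R 4.3.3, without the 10 gate genes. Standard errors were computed from the fold change and its F statistic. Shares were compared with two-sided exact permutation tests in scipy 1.17.1. Intervals are 95% Wilson intervals and, for a count of 0, the share that 3 counts would give, and both cover counting error only. Scrublet (scanpy 1.11.5) called 58 barcodes (0.620%) as doublets, none of them gated. Of the barcode sequences, 7 occurred in 2 libraries, none gated. Scripts were tested on simulated data.

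The text names genes of the gate and the lists, genes called or of the smallest p in each direction, and genes of extreme ratio to Ccl5-free cells. DESeq2 1.42.0, other normalization, filters, gates, depths, doublet and mitochondrial limits, and leaving out each library were tried as alternatives. Some genes, and a sub-gate and split that rest on them, are not reported here. Leaving out Lyz2-high cells and averaging over all draws were added after the data were seen.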

Additional observations from a re-analysis of the deposited data

Results flagged for a closer look

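The genotype difference in gated cells departed from that in Ccl5-free CD8 T cells for 15 genes (edgeR interaction with library as a term, adjusted p at most 0.05), all with a lower ERG CKO over WT ratio in gated cells. Among them the largest interactions on the log2 scale were those of Ccl6 (-8.93), Tnfaip2 (-8.92), Plaur (-7.88), Mpeg1 (-7.81) and Sirpa (-7.80), genes of macrophages and other myeloid cells. The 2 Lyz2-high WT cells held 91.2, 97.3, 80.8, 97.0 and 97.1% of their WT UMIs in gated cells, in that order. The Ccl5-free cells of ERG CKO library 1 also held 4 cells with at least 5 Lyz2 UMIs. In them the 14 monocyte and macrophage genes summed to 1522 CPM, beside 281 to 338 CPM in the other libraries. Ccl6 differed by -4.92 between genotypes in gated cells, and its interaction was 0.55 without ERG CKO library 1. Without cells of at least 5 Lyz2 UMIs, in both kinds of cell, edgeR called no gene, with 257 at an unadjusted p under 0.05.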

How the results depend on the processing

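The lower share of gated cells in ERG CKO kept its direction under each single alternative run. As a share of CD8 T cells of the gate (-8.11 points), it turned to 3.50 without WT replicate 2 and to 1.33 without ERG CKO replicate 1. The genes called depended on few cells. The genes called between genotypes (3) numbered 37 with no filter on low counts, 1 after thinning to 2000 UMIs, 0 without the 2 Lyz2-high cells and 19 to 47 with a library left out, and all 3 were among the 37. The interaction (15 genes) gave 51, 2, 0 and 4 to 54 genes in the same order. The 0 of the interaction came without cells of at least 5 Lyz2 UMIs, which also left out 4 Ccl5-free cells of ERG CKO library 1. The part of each removal in that 0 was not tested. A lone library left in a group was assumed to vary like the other group. Lyz2 turned from -3.69 to 0.31 without the Lyz2-high cells, and the interaction of Ccl6 (-8.93) ranged from -13.98 to 0.55 with a library left out, the latter without ERG CKO replicate 1. Among sub-gates, the difference for residence genes (1.58 points in the single draw) turned to -0.490 unthinned, -1.37 at 3000 UMIs and -1.06 over all draws, and that for proliferation genes (-4.84) to 1.76 unthinned. The cause was not tested. Groups of 2 libraries limit every test of shares to p = 0.333 (exact permutation).

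With replicate number as a block, edgeR called 2 genes, both among the 3, and the paired difference in share was -1.70 points (exact permutation p = 0.500). The labels do not say that equal numbers mark paired mice, and deviations of same-numbered libraries had r = 0.10 over 4429 genes.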
